A study of Homo sapiens with 9 samples.

Results

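The 5S rRNA genes and pseudogenes were examined in HEK293T cells, an established human embryonic kidney line, after expression of human protamines. Members were chosen by their measured values, as every gene of the deposited table with a symbol of the form RNA5S or RNA5SP followed by a number and an RPKM (reads scaled to gene length in kilobases and to the reads of the library) above 0 in at least 1 of the 9 libraries. This rule kept 47 of 493 listed 5S genes and pseudogenes, in a table of 57338 genes. Of the 493, 5 lie on chromosome Y and 0 of these were detected, which leaves 488 for the sequence comparisons. The lowest value above 0 was 31.24 RPKM, and the detected copy with the lowest maximum reached 94.08 RPKM, while the copies outside the rule were at 0 in every library.

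Cells were transfected with plasmids for enhanced green fluorescent protein alone (empty vector), hPRM1-EGFP or hPRM2-EGFP, and live cells with high EGFP were sorted after 3 days. Expression was transient, and each group held 3 libraries of total RNA made with a 3′ mRNA kit. Nothing in the sources used here says whether the replicates came from separate cultures, so p-values measure the spread between these libraries, which may be technical. The library labels gave the 2 treated groups as PRM1 and PRM2.

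5S rRNA is a short component of the large ribosomal subunit. It is transcribed outside the nucleolus by RNA polymerase III from a promoter that lies inside the gene, where transcription factor IIIA (GTF3A) binds first and recruits TFIIIC. The transcript is not normally polyadenylated, while the kit primes from stretches of A, and how fully it samples 5S rRNA was not tested. It is bound by La (SSB) and then joins RPL5 and RPL11 in a particle that enters the ribosome or binds MDM2. Functional genes lie in a tandem array on chromosome 1, and diverged copies are scattered over the genome as pseudogenes.

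RNA5SP530 and RNA5SP452 are shown as the called pseudogenes that differ from the array gene RNA5S12 throughout their length and drew no reads outside the hPRM2 libraries. They are the transcripts of GENCODE 29 on GRCh38, 5′ to 3′, in lower case.
RNA5SP530: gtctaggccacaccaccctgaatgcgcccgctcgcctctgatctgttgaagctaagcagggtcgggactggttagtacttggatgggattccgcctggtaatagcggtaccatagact
RNA5SP452: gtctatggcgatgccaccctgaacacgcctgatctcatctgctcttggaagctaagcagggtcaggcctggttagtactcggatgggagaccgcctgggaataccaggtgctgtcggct

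RNA5SP530 (ENSG00000277049) lies at chr9:41237440-41237557 on the minus strand, in no protein-coding gene. It is 84.3% identical to RNA5S12, and its longest stretch shared with RNA5S12 is 21 bases. The annotation gives it the type rRNA in spite of its pseudogene symbol. RNA5SP452 (ENSG00000199874) lies at chr18:24170505-24170623 on the minus strand, in an intron of OSBPL1A on its own strand, and is 89.9% identical to RNA5S12.

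RNA5S12 (ENSG00000199270) lies in the array on chromosome 1, on the minus strand, and is 119 bases long. RNA5S9 (ENSG00000201321), the other listed gene without a P in its symbol, lies in the same array, and RNA5SP202 (ENSG00000201185) lies on chromosome 6. Both are 99.2% identical to RNA5S12, so reads can be shared between them. The GENCODE file holds 15 further RNA5S genes that are identical in sequence to RNA5S12 and were not analysed here, so a value for RNA5S12 cannot be told apart from reads of these genes.

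RNA5SP226 (ENSG00000199523), on chromosome 6 in an intron of PDE10A on the other strand, is 85.8% identical and shares an unbroken stretch of 83 bases with RNA5S12. RNA5SP389 (ENSG00000199480), on chromosome 14, is 85.1% identical and shares 90 bases. RNA5SP473 (ENSG00000252211), on chromosome 19, is the most diverged of the detected copies, at 60.4% identity.

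The depth of the libraries decides what an RPKM value of these copies means. The table holds no counts, and the reads on genes were estimated from the step that 1 read makes in the low values. They came to 7930000, 8550000 and 10790000 reads in the empty vector libraries, to 4210000 to 5860000 in the libraries labelled hPRM1, and to 2650000, 1270000 and 1610000 in the hPRM2 libraries. The study reports larger mean numbers of reads obtained in every group, with hPRM2 between empty vector and hPRM1. Rates below are per read on genes and not per read obtained, which would give a smaller ratio of hPRM2 to empty vector.

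Short genes gave whole reads when the deposited values were taken as scaled by an effective length, which is inferred from the values and for a copy of 119 bases is 4.01 bases, 29.7 times shorter than its annotated length. A single read on such a copy therefore stood as 23.1 to 31.5 RPKM in the empty vector libraries, as 42.6 to 59.3 RPKM in the libraries labelled hPRM1 and as 94.1, 196 and 155 RPKM in hPRM2 replicates 1, 2 and 3. With this scale, 65 of 74 values of 5S copies up to 30 reads (87.8%) lay within 0.05 of a whole number of reads, against 10241 of 11155 values (91.8%) of longer genes with 1 transcript. A pseudogene at 100 to 200 RPKM in an hPRM2 library can thus rest on 1 read, and estimated reads are given beside RPKM throughout. Estimated reads divided by the reads on genes and multiplied by 1000000 are written RPM, with no correction for length.

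The targeted genes and the cell line markers were checked first. PRM2 stood at 71220, 60050 and 36130 RPKM in the hPRM2 libraries and at 0 in the other 6. PRM1 was at 0 in all 9 libraries, those labelled hPRM1 included. Of 10 marker genes of HEK293T cells, 9 or 10 reached 1 RPKM in each empty vector and hPRM2 library and 0 in the libraries labelled hPRM1, with summed levels of 188.0 to 343.7 against 0.370 to 0.999 RPKM. Of 10 blood genes, HBB and HBA1 among them, all 10 reached 1 RPKM in each library labelled hPRM1, with summed levels of 2067000 to 2272000 RPKM, against 0 to 18.26 RPKM in the other 6. These libraries are called libraries labelled hPRM1 below, and the part of these markers in the 5S values was not tested.

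5S reads were far more frequent in the hPRM2 libraries than in the empty vector libraries. Summed over all copies, they came to 54.3, 92.5 and 84.7 RPM in the empty vector libraries (77.2 ± 20.2, SD, n = 3). In the hPRM2 libraries they came to 2806, 16150 and 15910 RPM (11622 ± 7636, SD, n = 3), or 0.281, 1.62 and 1.59% of the reads on genes. The groups did not overlap: the lowest hPRM2 library was 30.4 times above the highest empty vector library, and the ratio of the means was 151. The sum is over copies selected on the same values and is given as a description, with no test. In these bulk libraries, scaled to their own totals, more 5S RNA per cell and less of the other RNA cannot be told apart.

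The hPRM2 libraries differed among themselves by 5.76 times, with replicate 1 below replicates 2 and 3. BCYRN1, another RNA polymerase III transcript, showed the same order, at 1142000, 14660000 and 12030000 RPKM in hPRM2 replicates 1, 2 and 3 against 1059000 to 1463000 RPKM in the empty vector libraries, so that its replicate 1 lay within the empty vector range while that of 5S lay above it. The libraries labelled hPRM1 held 2, 2 and 1 reads of any 5S copy, or 0.341, 0.475 and 0.191 RPM, and lay below the empty vector libraries by 230 times on the means.

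**Figure D1:**
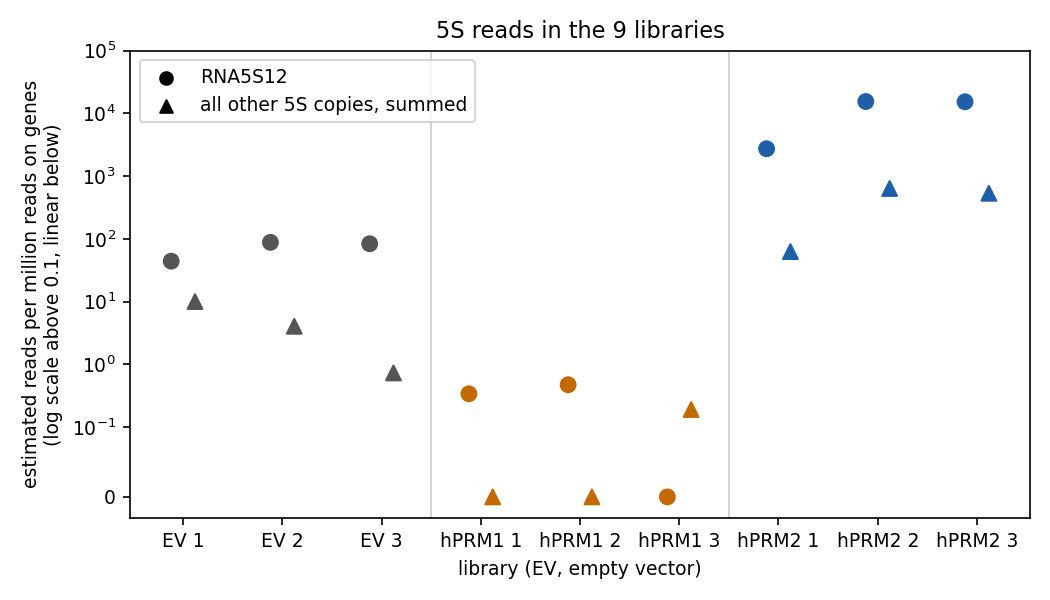
Estimated RPM (y axis, logarithmic above 0.1 and linear below) for RNA5S12 (circles) and for all other 5S copies summed (triangles) in each of the 9 libraries (x axis; grey, empty vector; orange, labelled hPRM1; blue, hPRM2). Both measures are highest in the 3 hPRM2 libraries, where the other copies sum to 62.9, 637.5 and 534.0 RPM.

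RNA5S12 accounted for most of these reads. Its deposited level was 11049.6, 22062.4 and 20964.3 RPKM in the empty vector libraries, which correspond to 351, 756 and 906 reads. It was 684652, 3872570 and 3838260 RPKM in the hPRM2 libraries, from 7276, 19756 and 24733 reads, and it was 85.1, 118.5 and 0 RPKM in the libraries labelled hPRM1, from 2, 2 and 0 reads. The order of the groups was thus hPRM2 above empty vector above the label hPRM1, with no overlap between neighbours.

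In RPM, RNA5S12 in the hPRM2 libraries was 38.0, 215 and 213 times the empty vector mean. It held 81.5, 95.6 and 99.1% of the 5S reads in the empty vector libraries and 97.8, 96.1 and 96.6% in the hPRM2 libraries, so that its share overlapped between these groups.

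The comparison of hPRM2 with the empty vector asked which copies rose or fell on expression of this protamine. With limma on log2(RPKM + 1), over genes at 1 RPKM or more in at least 3 of the 6 libraries, 12 of the 47 copies were tested and 35 were not. Of the 12, 6 were called higher and 0 lower, at an adjusted p of at most 0.05 and a change of at least 2-fold, where 1.36% of all 13126 genes tested were called higher and 1.37% lower. Of the 12, 4 were at 0 in all empty vector libraries and entered the test through the hPRM2 libraries, so these had to differ, and all 4 are among the 6 calls. They are RNA5SP530, RNA5SP452, RNA5SP202 and RNA5S9, for which no p is given. Of the 8 tested copies with empty vector reads, 2 were called higher, RNA5S12 and RNA5SP473. At an unadjusted p below 0.05 there were 7 of the 12, 0 of them lower, and 3351 of all 13126 genes. The median log2 fold change over all genes tested was −0.72.

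RNA5S12 rose by a log2 fold change of 6.98 (SE 0.679, adjusted p = 0.0102, limma). The call was lost when any empty vector replicate, or hPRM2 replicate 2 or 3, was left out, and its adjusted p over all alternatives ran from 0.000363 to 0.362. RNA5S9, the other array gene, was at 0 in the empty vector libraries and at 94.2, 2157 and 3106 RPKM in the hPRM2 libraries, from 1, 11 and 20 reads. Against the 3 reads that a count of 0 allows over the group, it was at least 52.6-fold higher in hPRM2. The first of its 3 hPRM2 values rests on 1 read.

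RNA5SP530 drew the most reads after RNA5S12. It was at 0 in the empty vector libraries and in the libraries labelled hPRM1, and at 8531, 43822 and 35662 RPKM in hPRM2, from 90, 222 and 228 reads. Every hPRM2 library lay above every other library. This copy passed the filter only through its hPRM2 reads, so the separation was set in advance. Relative to the empty vector it was at least 887-fold higher, a bound that describes the same reads and is no test.

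RNA5SP452 and RNA5SP202 were likewise at 0 outside the hPRM2 libraries. For RNA5SP452 the hPRM2 libraries gave 5, 29 and 35 reads, at least 113-fold above the empty vector group. Of RNA5SP202, close to RNA5S12 in sequence, 1, 14 and 6 reads were estimated, at least 34.5-fold above. For both, as for RNA5S9 and RNA5SP530, the lower bound covers counting error only. It describes copies that passed the filter through their hPRM2 reads and is no test.

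RNA5SP473, the most diverged copy, followed another pattern. It was 1 of 2 copies detected in all 3 empty vector libraries, the other being RNA5S12. It had 11.6, 5.68 and 7.90 reads there, 13.0, 36.7 and 18.9 reads in hPRM2, and 0, 0 and 1 reads in the libraries labelled hPRM1. Its deposited level was 350, 158 and 175 RPKM in the empty vector libraries and 1165, 6871 and 2801 RPKM in hPRM2, and these did not overlap. The log2 fold change was 3.72 (SE 0.654, adjusted p = 0.0413, limma), and the call held in 4 of 16 alternatives.

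Among the tested copies that were not called, adjusted p ran from 0.0637 to 0.71 in limma, and each had reads in the empty vector libraries. RNA5SP226 came closest, with 0, 19.8 and 0 reads in the empty vector libraries and 56, 165 and 181 in hPRM2, a log2 fold change of 11.01 with an SE of 2.44. Its hPRM2 values were all above its empty vector values. RNA5SP84 (in an intron of GREB1) had 17, 0 and 0 reads in the empty vector libraries and 0, 66 and 82 in hPRM2, and RNA5SP141 (in an intron of EPHB1) had 4, 5.19 and 0 against 0, 79.9 and 71.9. In these copies hPRM2 replicate 1 was at 0, so that the groups overlapped.

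RNA5SP252 and RNA5SP437 showed the same overlap. RNA5SP252 had 11, 0 and 0 reads in the empty vector libraries and 0, 12 and 39 in hPRM2, and RNA5SP437 had 20, 4 and 0 against 0, 21 and 12. RNA5SP389 and RNA5SP319 did not pass the filter on low values, since hPRM2 replicate 1 and all empty vector libraries were at 0. Replicates 2 and 3 of hPRM2 held 56.9 and 80.2 reads of RNA5SP389, and 13 and 10 of RNA5SP319. RNA5SP341 was the single copy detected in the empty vector alone, with 15 reads in replicate 1 and 0 in every other library, and is named outside the rule because it was an exception.

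**Figure D2:**
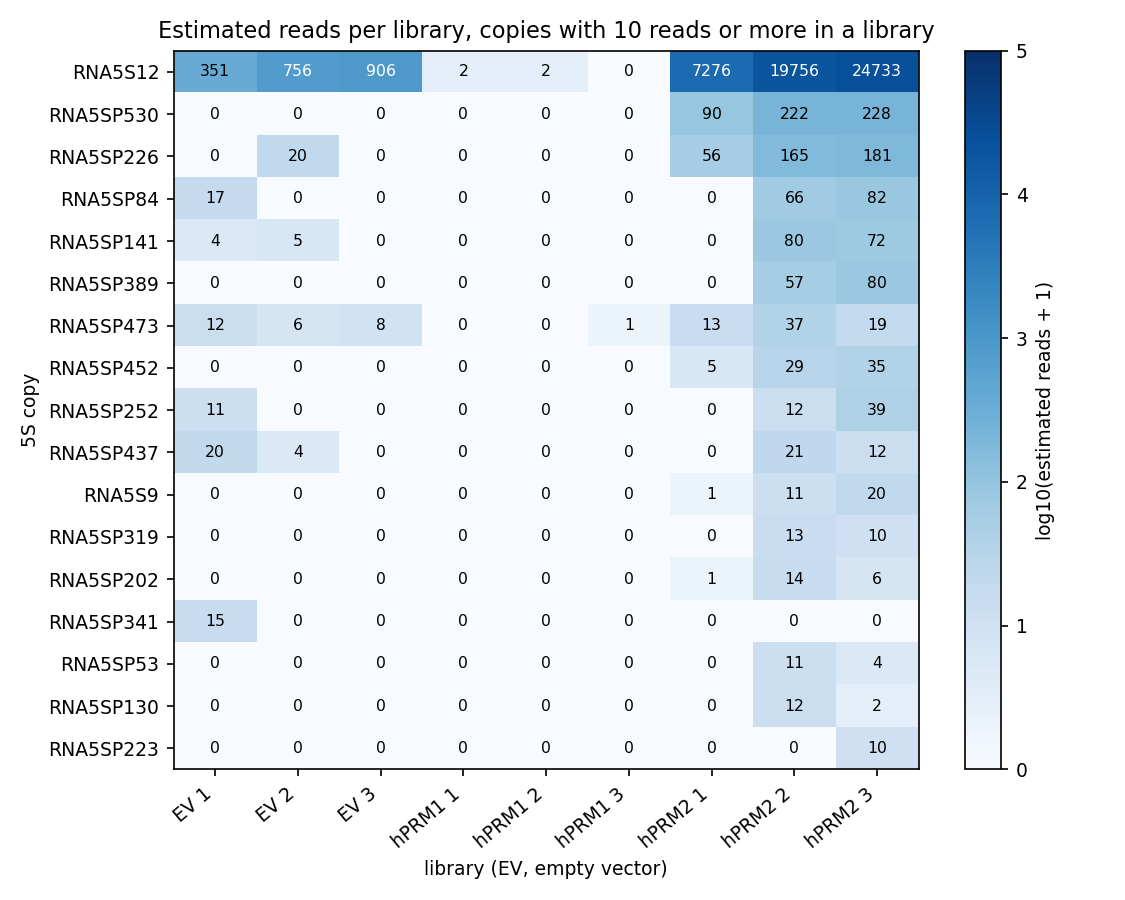
Estimated reads in each library (columns) for the copies with 10 or more reads in at least 1 library (rows), printed in each cell, with colour for log10(estimated reads + 1). RNA5SP530 has 90, 222 and 228 reads in hPRM2 and 0 elsewhere, and RNA5SP473 has reads in all empty vector and hPRM2 libraries.

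Copies also differed in their reads relative to RNA5S12 of the same library, a ratio that does not depend on library depth. RNA5SP530 stood at 1.24, 1.12 and 0.922% of the RNA5S12 reads in hPRM2 replicates 1, 2 and 3. In the 3 empty vector libraries together, 0 reads of RNA5SP530 beside 2013 of RNA5S12 allow at most 0.149%, a limit that covers counting error only. The hPRM2 ratios lay above it, but this copy was selected through its hPRM2 reads, so they are no test of a difference. RNA5SP226 stood at 0.770, 0.836 and 0.731% in hPRM2, against 0, 2.62 and 0% in the empty vector libraries.

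RNA5SP473 stood at 3.32, 0.751 and 0.872% of RNA5S12 reads in the empty vector libraries. In hPRM2 it was lower, at 0.178, 0.186 and 0.0764%, with no overlap. This direction was shared. With the libraries of each group pooled, RNA5SP437 went from 1.19 to 0.0637%, RNA5SP252 from 0.547 to 0.0985% and RNA5SP84 from 0.845 to 0.286%. RNA5SP141 went from 0.457 to 0.293%, RNA5SP226 from 0.984 to 0.777% and RNA5SP341 from 0.745 to 0%. In single libraries the groups overlapped for these. Copies at 0 in the empty vector libraries could not go lower. All copies other than RNA5S12 together came to 22.7, 4.59 and 0.872% of its reads in the empty vector libraries and 2.29, 4.11 and 3.47% in hPRM2, where the groups overlapped. These ratios are descriptions, with no test.

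More copies were detected in hPRM2 replicates 2 and 3 than in any other library. Copies above 0 RPKM numbered 8, 5 and 2 in the empty vector libraries (5 ± 3, SD, n = 3), 1, 1 and 1 in the libraries labelled hPRM1 and 8, 33 and 36 in the hPRM2 libraries (25.7 ± 15.4, SD, n = 3). Empty vector replicate 1 and hPRM2 replicate 1 thus had the same number of copies, although the latter held 7443 5S reads against 430.6. Many detections were thin: copies with 1 to 3 reads made up 3, 10 and 16 of those in hPRM2 replicates 1, 2 and 3.

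Of the 47 copies, 38 were detected in hPRM2 libraries and in no other, 6 in hPRM2 and empty vector libraries, 2 (RNA5S12 and RNA5SP473) in all 3 groups and 1 in the empty vector alone. In the hPRM2 group, 7 copies were detected in all 3 libraries, 17 in 2 and 22 in 1. Replicates 2 and 3 shared 24 copies, while 9 were in replicate 2 and not 3, and 12 in replicate 3 and not 2. Over all 9 libraries, 18 copies never exceeded 3 reads, 6 rested on a single read in all, and 3 (RNA5S12, RNA5SP530 and RNA5SP226) exceeded 100 reads in a library. A copy at 0 may hold up to 3 reads, which is 0.278 to 0.378 RPM in the empty vector libraries and 1.13 to 2.36 in hPRM2.

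Detection went with likeness to RNA5S12. Without the copies on chromosome Y and RNA5S12 itself, 46 copies were detected and 441 were not. The median identity to RNA5S12 was 79.1% in the former and 72.9% in the latter, with ranges of 60.4 to 99.2% and 29.4 to 92.4%. By identity, 0 of 16 copies under 60% were detected, 4 of 138 from 60 to 70% (2.90%), 22 of 230 from 70 to 80% (9.57%), 17 of 96 from 80 to 90% (17.7%) and 3 of 7 above that (42.9%).

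Detection also went with the stretch shared with RNA5S12. Among copies whose longest shared stretch was under 20 bases, 16 of 281 were detected (5.69%), against 18 of 178 from 20 to 40 bases (10.1%), 5 of 17 from 40 to 60 bases (29.4%) and 7 of 11 at 60 bases or more (63.6%). Those 7 were RNA5S9, RNA5SP202, RNA5SP226, RNA5SP389, RNA5SP141, RNA5SP370 and RNA5SP145, the last pair of which are named outside the rule to complete the count, and they shared 62 to 92 bases. Reads that fall in such a stretch fit RNA5S12 as well as the pseudogene, and the part of shared reads in these values was not tested. Among detected copies, identity and reads did not go together throughout: RNA5SP530 shared 21 bases at most and had more reads than RNA5S9, which is 99.2% identical.

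The detected copies other than RNA5S12 were spread over the genome. The 47 copies lay on 20 chromosomes, with 6 each on chromosomes 1 and 3 and 5 on chromosome 10. Of the 46, 28 (60.9%) lay inside a protein-coding gene, 27 in an intron and 1 over an exon, and 9 of these were on the strand of the host gene. Among copies not detected, 203 of 441 (46.0%) lay inside a protein-coding gene and 97 on its strand. Length differed little, with medians of 119 bases in detected and 114 bases in undetected copies, and GC content had medians of 51.7 and 48.8%. The longest run of A had a median of 3 bases in both sets. It reached 18 bases among detected and 7 among undetected copies, and its part in the reads was not tested.

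Other short noncoding RNAs were set beside 5S in RPM, each family summed over its genes and pseudogenes. 7SL, the RNA of the signal recognition particle, stood at 125 ± 48.8 in the empty vector libraries and 2210 ± 908 in hPRM2 (SD, n = 3), a ratio of 17.7. 7SK, which holds the elongation factor P-TEFb inactive, had a ratio of 13.4, Y RNA one of 4.85 and U6, the spliceosomal RNA, one of 2.64, and all of these are mainly transcribed by RNA polymerase III. 5.8S, which RNA polymerase I makes as part of the long rRNA precursor, was at 117 ± 46.4 and 56.5 ± 38.5 RPM, a ratio of 0.481.

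The ratio of 151 for 5S was the highest of these 6 families, and the difference between families was not tested. In hPRM2 replicate 1, U6 and Y RNA were both at 0 while 5S held 2806 and 7SL 1286 RPM. In the libraries labelled hPRM1, 7SL was at 122 ± 32.0 RPM (SD, n = 3), within the spread of the empty vector libraries, where 5S was at 0.336 ± 0.142. The 18S, 28S and 45S rRNA genes were not analysed here.

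The libraries labelled hPRM1 were compared with the same empty vector libraries that served the hPRM2 comparison. Of the 47 copies, 2 were tested with limma and both were called lower. This was the call most genes received, with 62.5% of the 13588 genes tested called lower and 12.9% higher. Both copies passed the filter on low values only with the empty vector libraries, so a lower call was favoured. RNA5S12 had a log2 fold change of −9.63 (SE 1.77, adjusted p = 0.00206, limma). From 4 reads in these 3 libraries, its rate in the empty vector group was 282 times higher, with a 95% exact counting interval of 110 to 1040. RNA5SP473 had a log2 fold change of −5.90 (SE 1.48, adjusted p = 0.00895, limma), with 1 read in the 3 libraries.

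The median log2 fold change over all genes was −1.72 in this comparison and 0.07 after median-of-ratios rescaling, under which RNA5SP473 lost its call and RNA5S12 was still called lower. The other 45 copies had too few values above 1 RPKM to be tested. The labels give these 3 libraries numbers in a series apart from that of the other 6, so that whatever goes with the library series and the label cannot be told apart.

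The direct comparison of hPRM2 with the libraries labelled hPRM1 tested 7 copies, and all 7 were called higher in hPRM2, where 37% of 11756 genes tested were called higher and 16% lower. They were RNA5S12, RNA5S9, RNA5SP530, RNA5SP226, RNA5SP452, RNA5SP473 and RNA5SP202, the copies present in all 3 hPRM2 libraries, and 5 of them were at 0 in every library labelled hPRM1. Those 5 entered the test through the hPRM2 libraries and had to differ, so the count of 7 is a description. Tests are given for the other 2, which also passed the filter only with the hPRM2 libraries, so a higher call was favoured. RNA5S12 had a log2 fold change of 16.60 (SE 1.92, adjusted p = 0.000846, limma), and RNA5SP473 one of 9.61 (SE 1.62, adjusted p = 0.00341, limma).

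The genes that make and bind 5S rRNA gave few calls between hPRM2 and the empty vector, and their number depended on the fit. Of a list of 35 genes of RNA polymerase III, its initiation factors and the 5S particle, all 35 were tested between hPRM2 and the empty vector and 0 were called in either direction by limma, with a median log2 fold change of −0.91 against −0.72 over all genes. At an unadjusted p below 0.05, 1 was positive and 6 were negative, beside 3351 of all 13126 genes in either direction. The per-gene test of the study's methods also called 0. A joint fit of the 9 libraries called 1 higher and 3 lower, where 3.86% of all genes were called higher and 12.3% lower. Without hPRM2 replicate 1 there were 0 called higher and 5 lower, where 5.3% of all genes were called higher and 12.3% lower. GTF3A was at 266, 325 and 222 RPKM in the empty vector libraries and 223, 111 and 227 in hPRM2, a log2 fold change of −0.59 (SE 0.378, adjusted p = 0.351, limma).

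SSB, the La protein that binds the 3′ end of new RNA polymerase III transcripts, was at 339, 332 and 271 RPKM in the empty vector libraries and 355, 440 and 235 in hPRM2, and these overlapped. RPL5, a ribosomal protein that binds 5S rRNA directly, was at 1052, 1214 and 810 RPKM against 1067, 1464 and 1128. RPL11, its partner, was at 9.002, 3.07 and 0.663 RPKM against 397.5, 31.5 and 23.1, and did not overlap, with a log2 fold change of 4.06 (SE 1.19, adjusted p = 0.107, limma). RPL11 has processed pseudogenes of like sequence, so its values are uncertain.

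In the libraries labelled hPRM1, 32 of the 35 genes were called lower and 0 higher, beside 62.5% of all genes called lower, with a median log2 fold change of −2.71. At an unadjusted p below 0.05, 33 were negative and 0 positive. RPL5 was at 34.1, 30.2 and 33.0 RPKM there (log2 fold change −4.92, adjusted p = 4.23e-06, limma), GTF3A at 28.9, 31.0 and 31.8 and SSB at 7.42, 22.9 and 15.8. The largest decrease in the list was that of RPF2, a factor that places the 5S particle in the pre-ribosome, at −5.43. POLR3K and POLR3G, subunits of RNA polymerase III, had −4.49 and −4.19, and GTF3C6 and GTF3C4, subunits of TFIIIC, −3.998 and −3.65. After median-of-ratios rescaling the list held 15 genes called lower and 3 higher, where 27.8% of all genes were called lower and 31.5% higher.

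Between hPRM2 and the libraries labelled hPRM1, 32 genes of the list were tested and 17 were called higher in hPRM2 and 0 lower, with 17 at an unadjusted p below 0.05, where 37% of all genes were called higher. The largest were RPL5 at a log2 fold change of 5.18, RPF2 at 5.04, RPL11 at 4.89, SSB at 4.47, GTF3C6 at 4.29 and POLR3K at 3.64. After median-of-ratios rescaling 7 were called higher and 1 lower, where 16.6% of all genes were called higher and 32.1% lower, and the study's per-gene test called 1 higher and 0 lower.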

How the data were processed

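Total RNA of 9 libraries described as HEK293T (3 each for empty vector, hPRM1 and hPRM2, as labelled) was sequenced with a 3′ mRNA kit. The authors processed reads with FastQC, cutadapt, STAR and Salmon (versions not given in the sources used here) on hg38 (GRCh38), removed mitochondrial genes, and deposited RPKM values of 57338 genes with no counts; the annotation version is not given in the sources used here. Symbols came from Ensembl identifiers (98.6% matched), and lengths, coordinates and sequences from GENCODE 29. Some sequences are not reported here.

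Estimated reads are RPKM times effective length times estimated depth. The depth came from the step of 1 read in genes with 1 transcript of 600 to 20000 bases, and the effective length assumed fragments of 250 ± 25 bases, as Salmon does by default for single reads. A value of 0 was taken to allow 3 reads, and limits and 95% exact intervals cover counting error only. Identity was computed with edlib 1.3.9.

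Genes at 1 RPKM or more in at least 3 of 6 libraries were compared with limma 3.58.1 (R 4.3.3; eBayes with trend and robust) on log2(RPKM + 1), with Benjamini-Hochberg adjustment over all genes tested and a call at an adjusted p of at most 0.05 and at least 2-fold. Fold changes on this scale depend on the pseudocount of 1 RPKM, which lies below 1 read on a 5S copy. Changes of these copies against values at or near 0 can thus be overstated. For RNA5SP473 in the libraries labelled hPRM1, the log2 fold change was −5.895, and −1.485 with a pseudocount of 100. The fit was tested on simulated data whose spread was taken from the empty vector libraries. That test does not cover the spread between the hPRM2 libraries. Named were the RNA5S genes, RNA5SP530, the 10 pseudogenes of highest mean RPKM, each called pseudogene, GTF3A, SSB, RPL5, RPL11 and up to 5 other called pathway genes per comparison. Members and lists were chosen with earlier results of these data known. Alternatives were pseudocounts of 0.1, 5 and 100, other filters (none, 10 RPKM) and scalings, a replicate block, 1 joint fit of the 9 libraries, the study's per-gene test and leaving out each replicate. Python 3.11.15, pandas 2.3.3, numpy 2.4.6 and matplotlib 3.10.9 were used.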

Additional observations from a re-analysis of the deposited data

Results flagged for a closer look

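The differences of hPRM2 and of the libraries labelled hPRM1 from the same empty vector libraries went in opposite directions for 2 copies. The direct comparison of both groups tested the difference between them. For RNA5S12 the difference was a log2 fold change of 16.60 (hPRM2 minus the libraries labelled hPRM1; adjusted p = 0.000846, limma), and every hPRM2 library lay above every library labelled hPRM1. For RNA5SP473 it was 9.61 (adjusted p = 0.00341, limma), again without overlap. The libraries labelled hPRM1 held 4 reads of RNA5S12 and 1 of RNA5SP473, so the sizes of both differences rest on the pseudocount. In each comparison with these libraries, both copies passed the filter only with the other group, which favoured the direction seen.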

How the results depend on the processing

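The replicate numbers did not pair the libraries: correlations of the deviations of same-numbered libraries ran from -0.0783 to 0.0795, and in 8 of 18 pairings of a library with another group the best match had the same number. With a replicate block, 5 copies in place of 6 were called higher in hPRM2 against the empty vector, 2 were called lower in the libraries labelled hPRM1 and 7 higher in the direct comparison, while the block cut calls over all genes from 179 to 49 higher and from 180 to 8 lower in hPRM2.

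Of the 6 copies called higher in hPRM2, 4 had to differ. With a pseudocount of 100, chosen after seeing the data, 2 of the 6 were called, and 0 with the study's per-gene test. Leaving out 1 replicate gave 0 to 3 calls, counted over all copies tested and not only these 6. Without hPRM2 replicates 1, 2 and 3 there were 3, 0 and 0 calls among 8, 5 and 5 copies tested. RNA5SP530, RNA5SP452, RNA5SP202 and RNA5S9 could not be tested there, since the filter still asked for 3 libraries. Without empty vector replicates 1, 2 and 3 there were 2, 3 and 2 calls among 9, 12 and 12 copies tested. Both counts of 3 include a copy outside these 6. The calls of RNA5S9, RNA5SP202 and RNA5S12 were lost when any 1 empty vector replicate was left out, and that of RNA5SP473 held in 4 of 16 alternatives. Of the 2 copies called lower in the libraries labelled hPRM1, 1 was called after median-of-ratios rescaling and 0 with the per-gene test. Of the 7 in the direct comparison, 0 were called with the per-gene test and 2 to 7 when 1 replicate was left out, 2 without each hPRM2 replicate, where 2 copies could be tested. Other alternatives left these counts within 1.5 times, and 0 results reversed.

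Summed RPKM without RNA5S12 was 1228.5 in the empty vector libraries, 15.2 in those labelled hPRM1 and 104230 in hPRM2, against 19254, 83.1 and 2902700 with it. Median-of-ratios rescaling gave 9077.5 and 218.83 in the empty vector libraries and those labelled hPRM1. At a minimum of 100 RPKM, 0.333 copies per library labelled hPRM1 were detected. The cause of these shifts was not tested, beyond fewer libraries or copies where these were left out. The filter on low values left out 35 copies. With no filter all 47 were tested between hPRM2 and the empty vector, and 5 were called higher, beside 0.345% of 20888 genes. At an unadjusted p below 0.05 there were 19 copies, beside 3485 of all genes. Since 38 copies were detected in hPRM2 libraries and in no other, their direction was set by the selection.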
